A study of Mus musculus with 8 samples.

Results

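The Wnt ligands, receptors, secreted antagonists and direct targets of the mouse were followed in single embryos at embryonic day 8.5 (E8.5). The set held 43 genes: 19 ligands (*Wnt*), 12 receptors (*Fzd*, *Lrp5* and *Lrp6*), 10 secreted antagonists (*Sfrp*, *Frzb*, *Dkk* and *Wif1*) and the targets *Axin2* and *Lef1*. All non-control probes whose transcript accession belonged to a listed gene were taken, which gave 52 of the 55681 probes on the array. The members were found by gene identity and not by a measured value, although the set itself was picked with earlier results of these data known. Of these, 46 probes of 39 genes were bright enough to be tested, and *Wnt2b*, *Wnt3a*, *Wnt10b* and *Dkk4* had no tested probe.

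Total RNA of 8 whole embryos was hybridised to Agilent arrays in 1 colour. Fathers were homozygous (HOM, Eed hypo/hypo) or heterozygous (HET, Eed hypo/wt) for Eed l7Rn5-1989SB, a hypomorphic allele of the Polycomb gene *Eed*, and mothers were wild type, all on a C57bl6/129 background. By the study's methods the colony also carried an Oct4GFP transgene. Every embryo was itself heterozygous for the allele, so that only the paternal genotype set the groups apart. HOM father embryos are named HOM 1 to HOM 4 and HET father embryos HET 1 to HET 4, and each group held 2 females and 2 males. HOM and HET fathers were brothers, and each group had fewer sires than embryos, which the files do not name, so that p-values measure the spread between embryos and not between fathers. The 4 arrays of a group lay on a slide of their own, and slide and father therefore cannot be told apart in any father comparison given here. Values are log2 signals relative to the 75th percentile of the array, written as the normalised signal, and a difference is HOM father minus HET father.

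Wnt proteins are secreted lipid-modified ligands that bind Frizzled receptors together with the co-receptors Lrp5 and Lrp6. In the canonical branch this stabilises beta-catenin, which enters the nucleus and acts with Tcf and Lef proteins on targets such as *Axin2*. Secreted Frizzled-related proteins and Wif1 bind the ligands, whereas Dkk proteins act on the co-receptors. At E8.5 Wnt signals from the tail bud maintain the progenitors of the presomitic mesoderm, and Wnt ligands of the dorsal neural tube act on neural crest and neural progenitors. Many of these genes have CpG-rich promoters, a class on which Polycomb repressive complexes are known to act in other settings.

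The embryos held RNA of the tissues present at this stage. Neural (*Sox2*, *Otx2*), heart (*Actc1*, *Tnnt2*), presomitic (*Tbx6*, *Hes7*) and primitive blood (*Hbb-bh1*) markers were above background on all arrays. The yolk sac and visceral endoderm markers *Afp*, *Ttr* and *Rhox5* were too. So were somite (*Meox1*, *Tcf15*), decidual (*Prl8a2*) and trophoblast markers (*Plac1*, and *Gcm1* and *Prl3d1* on their brightest probes). *Myf5* of the somite list and *Tpbpa* of the trophoblast list were above background on 0 arrays. Between 51.9% and 60.8% of spots were well above background on each array, and 0 non-control spots were saturated. The number of arrays limits the precision.

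The promoters of *Axin2*, *Fzd7* and *Lef1*, which carried the clearest father differences among members with a window in the RefSeq table, are shown for their CpG content. Each line gives the 250 bases before the transcription start (RefSeq, GRCm38.p6, plus strand), with CpG dinucleotides in capitals.
Axin2, chr11:108920099-108920348, with 24 CpGs: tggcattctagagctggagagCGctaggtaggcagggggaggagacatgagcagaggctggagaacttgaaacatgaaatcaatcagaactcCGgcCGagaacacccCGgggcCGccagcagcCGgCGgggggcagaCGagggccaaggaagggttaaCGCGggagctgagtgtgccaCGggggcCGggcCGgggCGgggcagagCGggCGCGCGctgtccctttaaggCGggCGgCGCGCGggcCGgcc
Fzd7, chr1:59481897-59482146, with 17 CpGs: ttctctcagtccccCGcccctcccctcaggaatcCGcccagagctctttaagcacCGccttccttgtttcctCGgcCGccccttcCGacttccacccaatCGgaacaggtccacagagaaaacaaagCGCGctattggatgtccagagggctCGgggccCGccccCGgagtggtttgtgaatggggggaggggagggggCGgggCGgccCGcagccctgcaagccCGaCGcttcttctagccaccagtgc
Lef1, chr3:131110047-131110296, with 11 CpGs: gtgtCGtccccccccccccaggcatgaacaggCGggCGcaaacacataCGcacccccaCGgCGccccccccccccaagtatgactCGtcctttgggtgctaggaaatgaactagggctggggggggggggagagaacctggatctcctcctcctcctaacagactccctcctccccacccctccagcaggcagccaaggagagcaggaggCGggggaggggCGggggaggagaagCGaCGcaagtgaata
Windows were held for 29 of the 43 members (35 windows), and 14 members, *Lrp5* and *Fzd2* among them, had none. The median window of the members held 20 CpGs (interquartile range 11.5 to 33), against 10 (3 to 19) over 21263 windows of protein-coding genes. The words CTTTGAA and CTTTGAT, variants of the Tcf and Lef binding motif searched on both strands, occurred in 3 of the 35 member windows, those of *Dkk1*, *Wnt11* and *Wnt5b*, or 8.57%. The share was 7.48% over all 32851 windows and 6.73% over those of protein-coding genes. Neither word was present in the windows shown, which says only that these letters are absent there.

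Few members differed by father. At an adjusted p below 0.05, 3 of the 46 tested probes were higher in HOM father embryos (*Axin2*, *Fzd7* and *Lrp5*), where 12.3% of all tested probes were called higher, and 3 were lower (*Lef1*, *Wnt9b* and *Fzd2*), where 8.69% of all were called lower. The remaining 40 were not called. At the stricter limit of an adjusted p below 0.01 and at least 2-fold, limma called 0 of 46 member probes, against 1.27% of all tested probes; 11 member probes had an unadjusted p below 0.05, as did 34.8% of all. All HOM father embryos lay above all HET father embryos for 3 member probes (14.1% of all tested probes) and below them for 4 (13% of all). In each of these counts the share of the members was below that of all tested probes. The counts draw on the same probes and the gaps are of few probes each, so this is not read as a trait of the set.

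Differences within the set were small. They lay below 0 for 34 member probes and above 0 for 12, with a median of -0.09 on the log2 scale against -0.02 over all tested probes, of which 54.1% lay below 0. The median standard error was 0.11, and for 40 of 46 probes the 95% interval excluded a 2-fold change in either direction. It did not for the other 6, which were *Wnt2*, *Wnt8a*, *Wnt8b*, *Wnt16*, *Sfrp4* and 1 probe of *Fzd2*. With each array scaled by its median instead, the median difference over all tested probes was -0.21 and that of the members -0.28. Lower calls then numbered 16 of 46 members, against 34.8% of all tested probes, and the call of *Lrp5* was lost.

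**Figure D1:**
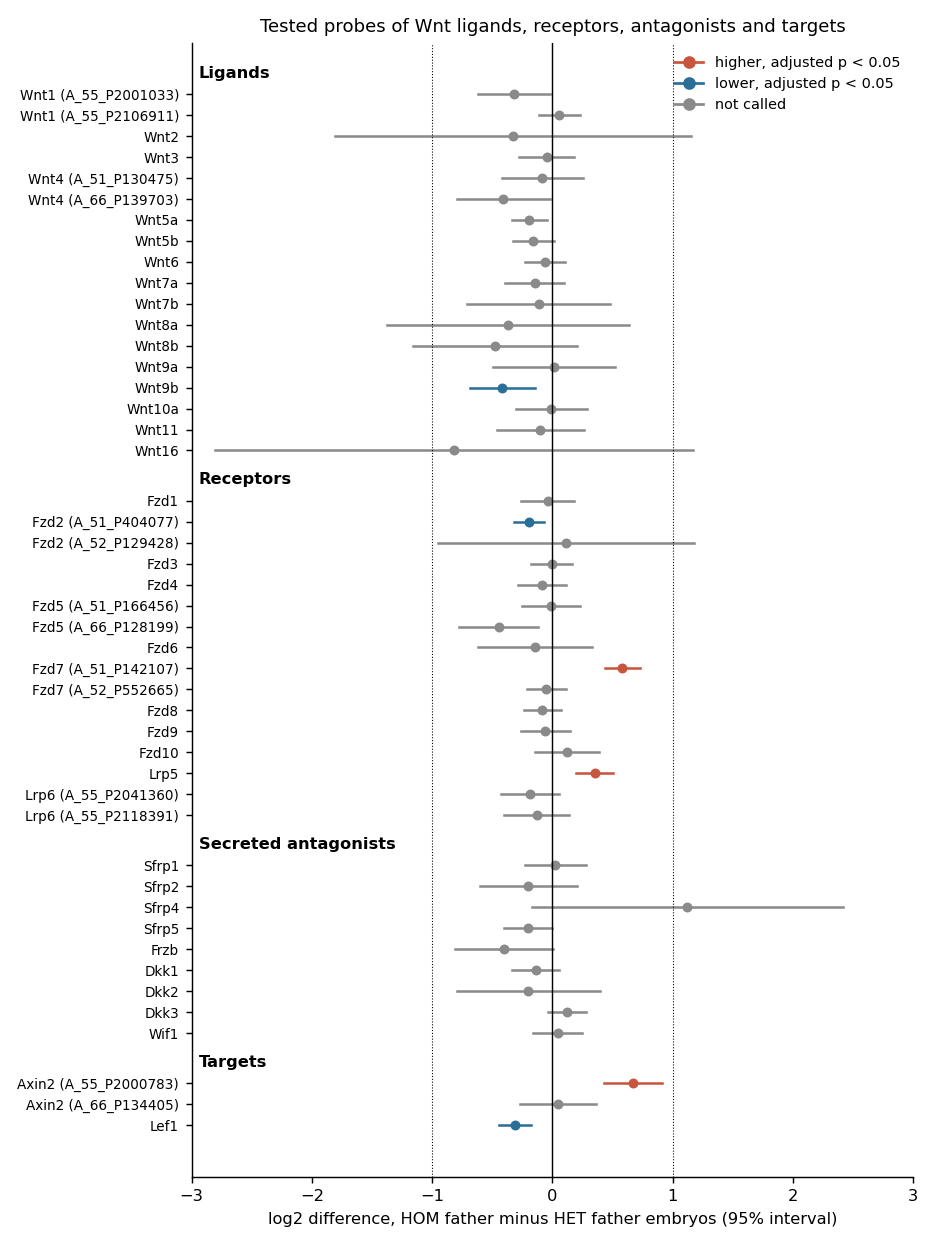
Log2 difference between HOM and HET father embryos (x axis, point) with its 95% interval (line) for each of the 46 tested member probes (y axis, by role); dotted lines mark a 2-fold change. Of the 46, 3 are coloured as higher and 3 as lower, and the interval of *Wnt16* is among the widest.

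The largest difference among called members was in *Axin2* (chromosome 11), which encodes a scaffold of the beta-catenin destruction complex and is a widely used readout of canonical Wnt signalling. Its probe A_55_P2000783 gave a normalised signal of 0.64, 1.07, 0.79 and 0.81 in HOM 1 to HOM 4 and of 0.13, -0.02, 0.27 and 0.25 in HET 1 to HET 4. Every HOM father embryo lay above every HET father embryo. The means were 0.83 ± 0.18 and 0.16 ± 0.13 (SD, n = 4 each), a difference of 0.67 (SE 0.10) or 1.59-fold, with an adjusted p of 0.00426. The second probe of the gene, A_66_P134405, did not show this. It gave -3.26, -3.36, -3.16 and -2.95 in HOM father and -3.04, -3.08, -3.57 and -3.23 in HET father embryos, which overlap. Its difference was 0.045 (95% interval -0.27 to 0.36, adjusted p = 0.849) and fell below 0 under quantile, median and normexp processing, so that the increase of *Axin2* rests on 1 of 2 probes. The files give no position of a probe within its transcript.

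*Lef1* (chromosome 3), a transcription factor through which beta-catenin acts and itself a Wnt target, moved the other way. Its single probe gave 1.41, 1.52, 1.62 and 1.58 in HOM 1 to HOM 4 against 1.86, 1.86, 1.84 and 1.81 in HET 1 to HET 4. The HET father embryos lay within a narrow band above all HOM father embryos. The difference was -0.31 (SE 0.06), 1.24-fold lower in HOM father embryos with an adjusted p of 0.00799. The 2 targets of the set were called in opposite directions.

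*Lef1* is expressed in presomitic mesoderm. Of the 10 tested probes of the posterior streak and presomitic list, 3 were called lower, 1 each of *Tbx6*, *Msgn1* and *Hes7*, against 8.69% of all tested probes. The other 7 were not called, among them *T*, *Dll1* and the tested probes of *Nkx1-2* and *Fgf8*. All 10 differences lay below 0, against 54.1% of all tested probes. So did all 7 of the yolk sac and visceral endoderm list, whereas the other marker lists had differences on both sides of 0. The summed level of the 7 presomitic list genes, 1 probe each, was 3.42 to 3.63 in HOM father and 3.67 to 3.80 in HET father embryos, with no overlap. Bright probes weigh most in this sum. The called *Tbx6* and *Hes7* probes are its brightest, with HET father means of 1.99 and 2.01. The sum is therefore not separate from these calls. Of all single tested probes, 13% had every HET father embryo above every HOM father embryo. Whether this took part in the *Lef1* difference was not tested. In whole embryos, fewer cells of a type and less RNA per cell cannot be told apart.

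Among the receptors, 16 probes of 12 genes were tested. *Fzd7*, a Frizzled receptor of the early embryo and of mesoderm, was called higher on probe A_51_P142107. This probe read -0.28, -0.40, -0.26 and -0.25 in HOM 1 to HOM 4 and -0.76, -0.90, -0.91 and -0.95 in HET 1 to HET 4. The groups were separated by more than the range within either. The difference was 0.58 (SE 0.06), or 1.5-fold, with an adjusted p of 0.000814, the smallest of the set. The other probe, A_52_P552665, is the leading probe of the gene, the tested one with the highest mean, and gave 1.26, 1.07, 1.39 and 1.22 against 1.29, 1.27, 1.33 and 1.26. Here the groups overlapped, with a difference of -0.05 (95% interval -0.21 to 0.11, adjusted p = 0.648) that turned to 0.00336 without HOM 2. This leading probe was not called under any alternative. Its difference was lowest under median scaling, at -0.24 with an adjusted p of 0.0507.

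*Lrp5* (chromosome 19), a co-receptor that is phosphorylated on Wnt binding and recruits Axin, was measured by 1 probe. It gave 1.45, 1.42, 1.42 and 1.66 in HOM 1 to HOM 4 and 1.12, 1.07, 1.15 and 1.21 in HET 1 to HET 4. All HOM father embryos were above all HET father embryos, and HOM 4 stood above the other three of its group. The difference was 0.35 (SE 0.07), or 1.27-fold, with an adjusted p of 0.01. Under median scaling it was 0.16 with an adjusted p of 0.0898. Its paralogue *Lrp6* was not called on either probe, with differences of -0.19 (95% interval -0.42 to 0.05) and -0.13 (-0.40 to 0.14).

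*Fzd2*, a receptor of both canonical and non-canonical ligands, was called lower by a small margin on probe A_51_P404077. This gave 3.64, 3.57, 3.74 and 3.73 in HOM father and 3.89, 3.86, 3.84 and 3.87 in HET father embryos. The groups did not overlap, and the difference was -0.20 (SE 0.05), 1.15-fold lower with an adjusted p of 0.0359. A second probe, A_52_P129428, scattered from -1.63 to 0.75 within the HET father group alone and had a difference of 0.11 (95% interval -0.95 to 1.17) that was below 0 under median scaling and without HOM 2 or HET 4.

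The other receptors were not called. *Fzd5* had the largest difference among their leading probes. Its probe A_66_P128199 gave -2.19, -2.54, -2.59 and -2.22 in HOM 1 to HOM 4 against -1.90, -2.22, -1.66 and -1.98 in HET 1 to HET 4. HET 2 lay among the HOM father embryos, and the difference of -0.45 (SE 0.14) had an adjusted p of 0.0613. It was called under 4 alternatives: quantile normalisation (adjusted p = 0.0378), median scaling (0.0153), normexp (0.031) and without HET 2 (0.0402). The second *Fzd5* probe differed by -0.01 (95% interval -0.25 to 0.23). *Fzd1*, *Fzd3*, *Fzd4*, *Fzd6*, *Fzd8*, *Fzd9* and *Fzd10* had differences between -0.15 and 0.12.

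**Figure D2:**
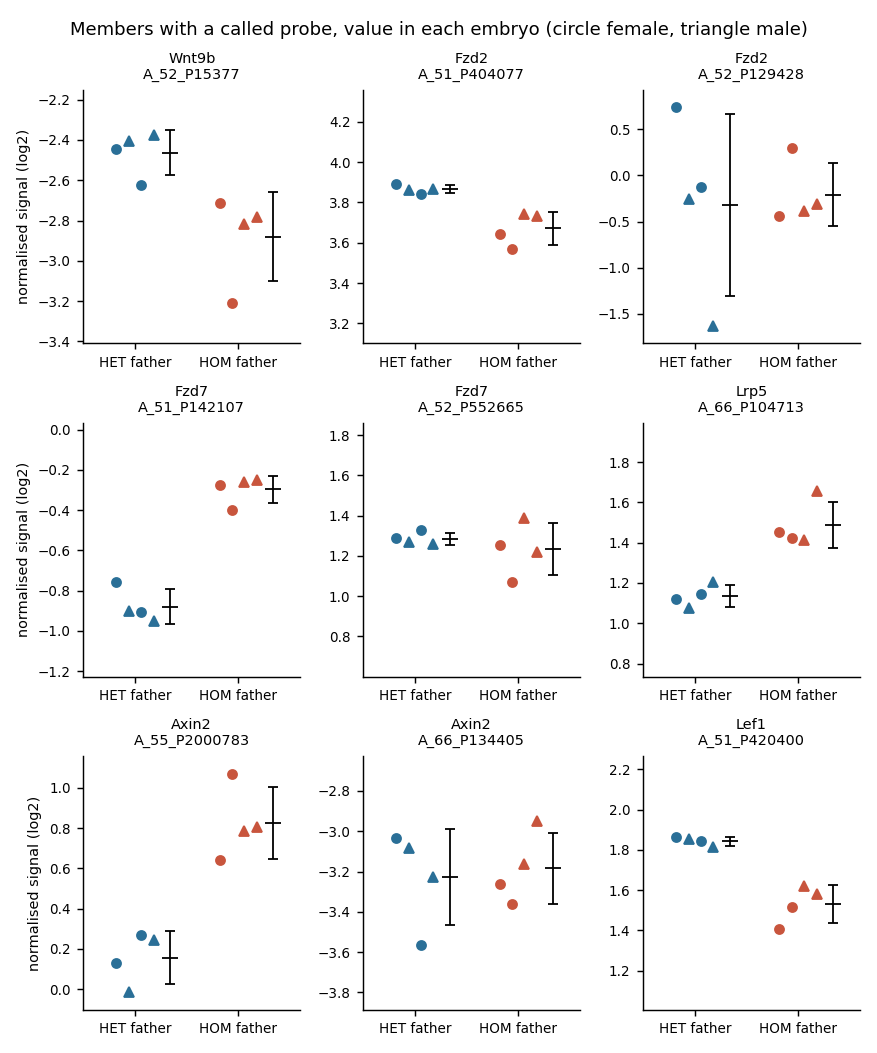
Normalised signal (log2, y axis) in each embryo for the 6 members with a called probe and their other tested probes; circles are females, triangles males, and the black bars are mean ± SD of 4 embryos. The other probes of *Axin2*, *Fzd7* and *Fzd2* overlap between fathers where the called probes do not.

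Of the ligands, 18 probes of 16 genes were tested and 1 was called, lower, against 12.3% called higher and 8.69% lower of all tested probes. Differences lay below 0 for 16 of the 18 (median -0.15), against 54.1% of all tested probes (median -0.02). *Wnt9b*, a canonical ligand needed for urogenital and facial development, was the called one. It gave -2.71, -3.21, -2.82 and -2.78 in HOM 1 to HOM 4 and -2.45, -2.41, -2.63 and -2.38 in HET 1 to HET 4. The groups did not overlap, although HET 3 and HOM 1 lay close to each other. The difference was -0.42 (SE 0.12), 1.33-fold lower, with an adjusted p of 0.0398, and the call was lost without HOM 3, HOM 4, HET 1, HET 2 or HET 4. *Wnt3*, its neighbour on chromosome 11, differed by -0.05 (adjusted p = 0.77). The other neighbouring pair with both genes tested, *Wnt6* and *Wnt10a* on chromosome 1, differed by -0.06 and -0.01.

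*Wnt5a*, the main non-canonical ligand of the tail bud, gave 1.24 to 1.45 in HOM father and 1.48 to 1.63 in HET father embryos. The groups did not overlap but the difference of -0.19 (SE 0.06) had an adjusted p of 0.0652. *Wnt5a* was called lower under median scaling, normexp, an intensity trend with robust variance, sex as a covariate, and the percentile over distinct probes. *Wnt5b* differed by -0.16 (adjusted p = 0.17). *Wnt1*, a ligand of the dorsal neural tube and midbrain, differed by 0.06 (95% interval -0.11 to 0.23) on its leading probe and by -0.32 (adjusted p = 0.12) on a probe that was above background on 5 of 8 arrays. *Wnt4* differed by -0.41 (adjusted p = 0.124) and -0.08 on its 2 probes. *Wnt7b* was fitted without HOM 2, whose spot was flagged, and differed by -0.12.

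*Wnt3a*, the ligand of the tail bud that sustains presomitic mesoderm, was too dim to test. It was well above background in 2 of 4 HOM father embryos and in 0 of 4 HET father embryos. The signals were -4.74, -4.27, -5.02 and -4.96 in HOM 1 to HOM 4 and -5.31, -5.68, -6.21 and -6.50 in HET 1 to HET 4. All HOM father embryos were above all HET father embryos. As most of these signals were not well above background, no fold is given. *Wnt2b* was above background on 1 of 8 arrays, *Wnt10b* on 2 and *Dkk4* on 1.

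Some members varied more between embryos than between fathers. *Wnt16* had the largest difference among ligands not called, -0.82 (SE 0.86, adjusted p = 0.542). It gave -3.94, -4.11, -3.80 and -1.44 in HOM 1 to HOM 4 and -4.32, -0.85, -2.97 and -1.89 in HET 1 to HET 4. Values near the top and near the bottom of this range occurred in both groups. A second *Wnt16* probe, too dim to test, was above background on 1 HOM father and 2 HET father arrays. It gave -5.30 in HOM 4, -5.49 in HET 2 and -3.81 in HET 4. In HOM 1, *Wnt2* was at -4.16 and *Wnt8a* at -4.25, against -2.23 to -0.92 and -3.51 to -2.05 in the other seven embryos; these 2 genes were picked out after their values had been seen.

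None of the 9 tested antagonist probes, each of a different gene, was called, against 12.3% called higher and 8.69% lower of all tested probes. The lowest adjusted p was 0.142, of *Sfrp5*. *Sfrp5* differed by -0.20 (SE 0.09), *Frzb* by -0.40 (SE 0.18) and *Dkk1*, which restrains Wnt signalling in the anterior embryo, by -0.14 (SE 0.09). *Dkk3* differed by 0.12, *Sfrp1* by 0.02, *Wif1* by 0.04, and *Sfrp2* and *Dkk2* by -0.20 each. For 8 of these 9 genes the 95% interval excluded a 2-fold change.

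The exception was *Sfrp4*, a secreted Frizzled-related protein that binds Wnt ligands. It gave -4.07, -1.86, -2.01 and -3.29 in HOM 1 to HOM 4 and -3.08, -3.68, -4.56 and -4.40 in HET 1 to HET 4. HOM 2 and HOM 3 were the highest, and HOM 1 and HOM 4 lay among the HET father embryos. The difference of 1.12 (SE 0.56, 95% interval -0.17 to 2.41) was not called (adjusted p = 0.195). *Prl8a2*, a prolactin family gene of the decidua, gave 0.29, 4.14, 4.45 and 1.30 in HOM 1 to HOM 4 and 1.85, 1.88, -1.42 and -3.99 in HET 1 to HET 4. It was likewise highest in HOM 2 and HOM 3 and lowest in HET 3 and HET 4.

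The other decidual markers did not follow this order. *Dcn* was lowest in HOM 2 at 0.91 and differed by -0.06 between fathers, and *Hand2* differed by -0.23. Of the decidual list, 3 of 3 genes were tested and 0 called. Its summed level was 2.47 to 4.79 in HOM father and 2.42 to 3.24 in HET father embryos. Of the trophoblast and placental list, 4 of 5 genes had a probe and 3 a tested one. The summed level of these 3 ran from 3.32 to 4.12 in HOM father and from 4.06 to 4.81 in HET father embryos, with *Gcm1* called lower on 1 probe. *Prl3d1* of that list was 1.97 in HOM 2 and 1.12 in HOM 3, above the other six embryos, *Plac1* differed by -0.30, and *Tpbpa* was above background on 0 arrays. Without HOM 2 and HOM 3, which hold the highest *Sfrp4* values, so that the difference has to shrink, it was 0.25. In the same fit 3 member probes were called higher and 1 lower. The part of maternal or trophoblast tissue in the *Sfrp4* values was not tested.

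**Figure D3:**
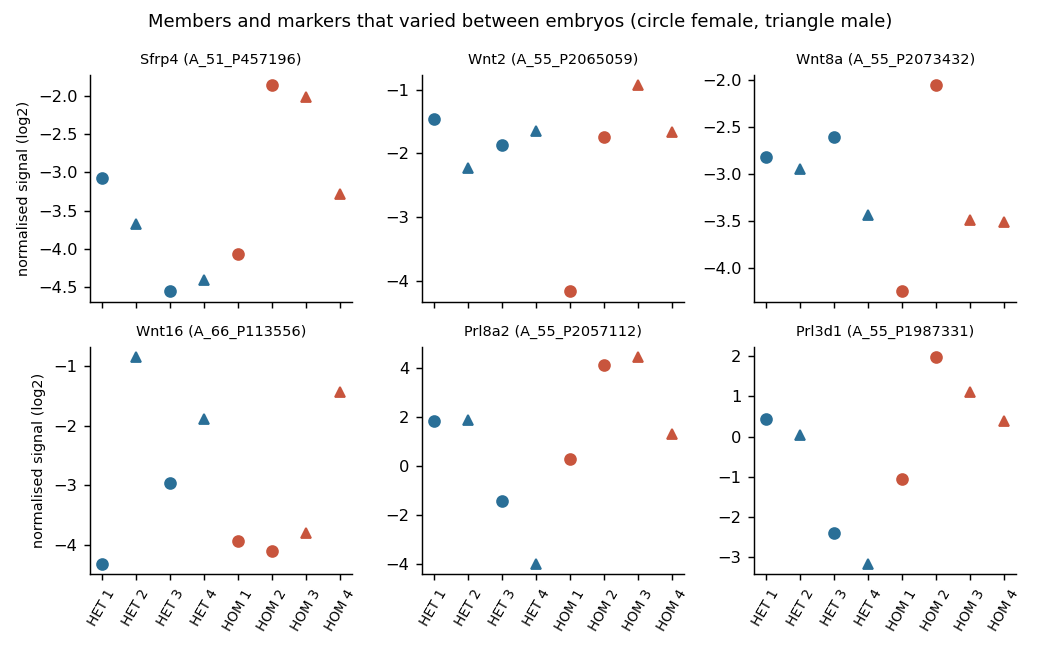
Normalised signal (log2, y axis) of *Sfrp4*, *Wnt2*, *Wnt8a* and *Wnt16* and of the markers *Prl8a2* and *Prl3d1* in each of the 8 embryos (x axis; circles females, triangles males, blue HET and red HOM father). *Sfrp4* and *Prl8a2* are both highest in HOM 2 and HOM 3, whereas *Wnt2* and *Wnt8a* are lowest in HOM 1.

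Sex was balanced over the slides. No member probe differed between females and males with father in the model: limma called 0 of 46, against 0.121% of all tested probes, and 2 had an unadjusted p below 0.05, as did 5.22% of all. These were *Wnt16*, lower in females by 1.84 (adjusted p = 0.913), and a *Lrp6* probe, lower by 0.21 (adjusted p = 0.914). *Wnt16* was at -4.32 to -2.97 in the 4 females and at -3.80 to -0.85 in the 4 males, which overlap. For the difference of the father effect between the sexes, limma again called 0 of 46, against 0.0639% of all, with 2 probes, of *Wnt4* and *Fzd10*, at an unadjusted p below 0.05, as were 4.52% of all. With 2 embryos for each combination of father and sex, such a difference had to be large to be called.

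The wider pathway was examined through 58 further genes, comprising intracellular components, modulators, planar polarity genes and target genes. Of 70 tested probes of 54 genes, 6 were called higher and 6 lower, against the 12.3% and 8.69% of all tested probes given above, and none passed the stricter limit. Neither share of the pathway exceeded that of all probes. The median difference was -0.07. The 6 called probes with the largest differences, one for each of 6 genes, are given here, with the other tested probes of those genes.

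*Notum*, a secreted enzyme that removes the lipid from Wnt ligands, gave 3.27, 3.35, 3.32 and 3.30 in HOM 1 to HOM 4 and 2.73, 2.67, 2.81 and 2.77 in HET 1 to HET 4. Its difference of 0.56 (SE 0.05) had an adjusted p of 0.000373 and the groups were far apart. *Nkd2*, which binds Dishevelled and is induced by Wnt signalling, gave 1.99, 1.93, 2.03 and 2.11 against 1.56, 1.56, 1.43 and 1.75 on probe A_55_P2143279. Its difference was 0.44 (SE 0.08, adjusted p = 0.00691), but its second probe differed by -0.05 (95% interval -0.25 to 0.15).

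*Tcf7l2*, a Tcf transcription factor, was higher by 0.48 (SE 0.09, adjusted p = 0.00893) and 0.26 (SE 0.06, adjusted p = 0.0185) on 2 probes, and the remaining one, not called, differed by -0.38 (SE 0.22). The first gave -2.24, -2.55, -2.49 and -2.26 against -2.77, -2.85, -3.001 and -2.85. *Bcl9* was higher by 0.61 (SE 0.17, adjusted p = 0.0445) and its paralogue *Bcl9l* lower by 0.58 on the log2 scale (a difference of -0.58, SE 0.16, adjusted p = 0.0407). *Bcl9* gave -1.73, -1.68, -1.94 and -1.65 against -2.12, -1.98, -2.61 and -2.73. Both paralogues tether Pygopus proteins to beta-catenin. *Bcl9* lost its call under 14 and *Bcl9l* under 11 of the 22 alternatives run.

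The 9 further target genes listed, with 10 tested probes, included none called higher. The list leaves out *Nkd2*, which is also induced by Wnt signalling and was called higher on 1 of 2 probes. It also leaves out the member targets *Axin2*, called higher on 1 of 2 probes, and *Lef1*, called lower. All 10 differences of the list lay below 0 (median -0.18), against 54.1% of all tested probes (median -0.02). Of the 10, 2 were called lower, against 8.69% of all tested probes. They were *Msgn1*, a presomitic transcription factor, by -0.44 (SE 0.12, adjusted p = 0.0407), and 1 of the 2 probes of *Tbx6*, by -0.32 (SE 0.09, adjusted p = 0.0359). *Msgn1* gave -3.30, -3.04, -3.34 and -2.96 in HOM 1 to HOM 4 and -2.95, -2.80, -2.61 and -2.54 in HET 1 to HET 4, and lost its call under 12 of the 22 alternatives. *T*, *Sp5*, *Ccnd1* and *Myc* differed by -0.05, -0.07, -0.07 and -0.12 and were not called, nor were *Cdx1*, *Cdx2* and *Cdx4*. *T*, *Tbx6* and *Msgn1* also belong, on the same probes, to the presomitic marker list given above, so the 2 lists are not separate evidence. The other called genes were *Daam1*, higher, and *Gsk3a*, *Prickle1* and *Celsr1*, lower, with differences between -0.28 and 0.26.

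**Figure D4:**
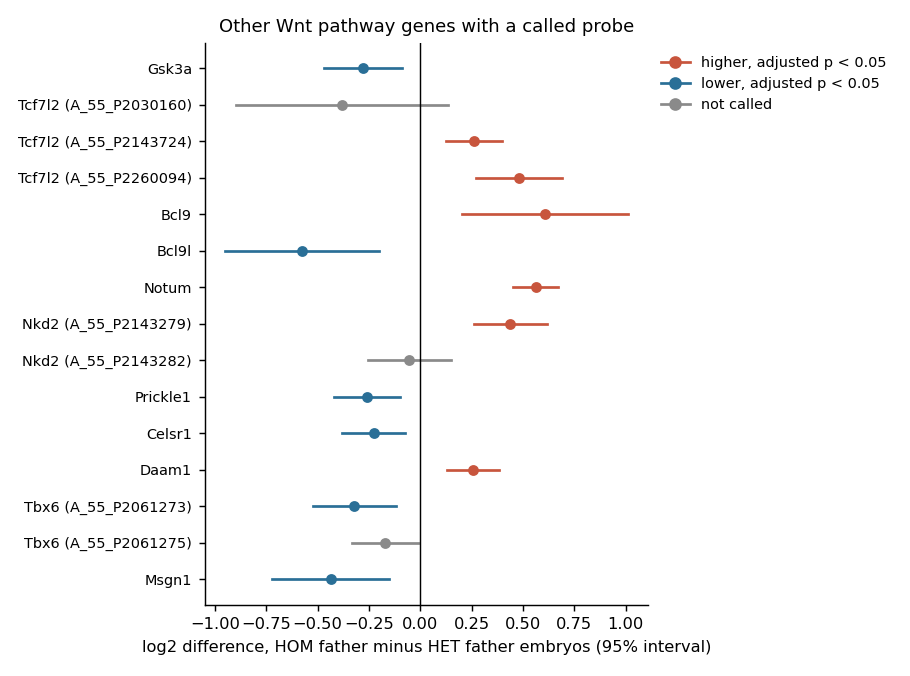
Log2 difference between HOM and HET father embryos (x axis, point) with its 95% interval (line) for the other Wnt pathway genes with a called probe and all their tested probes (y axis). *Notum* has the narrowest of the higher intervals, and the *Tcf7l2* probe A_55_P2030160 and the *Nkd2* probe A_55_P2143282 lie below 0 without a call.

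The called member probes were not equally stable to processing. That of *Fzd7*, which is not the leading probe of the gene, kept its call under every one of the 22 alternatives run. *Axin2* and *Lef1* lost theirs under 1, a fit with the position of the array on the slide as a fixed block, which compares only the 3 positions held by both groups (adjusted p = 0.0874 and 0.135, differences 0.72 and -0.26). *Lrp5* lost its call under that fit too (adjusted p = 0.0935) and under median scaling. *Wnt9b* and *Fzd2* lost theirs under 10 and 13 of the 22. For *Wnt9b* these included the fit with the identifier number as a random block. This number comes from the sample labels, which do not say what it stands for. HOM 3 and HOM 4 shared a number, as did HET 1 and HET 2. The correlation between embryos of a shared number was estimated at 0.302 in the father fit. The reported setting treats all embryos as independent, so its p-values do not allow for this. In the fit with the identifier block 1763 of all tested probes were called lower, against 2583 under the reported setting.

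**Figure D5:**
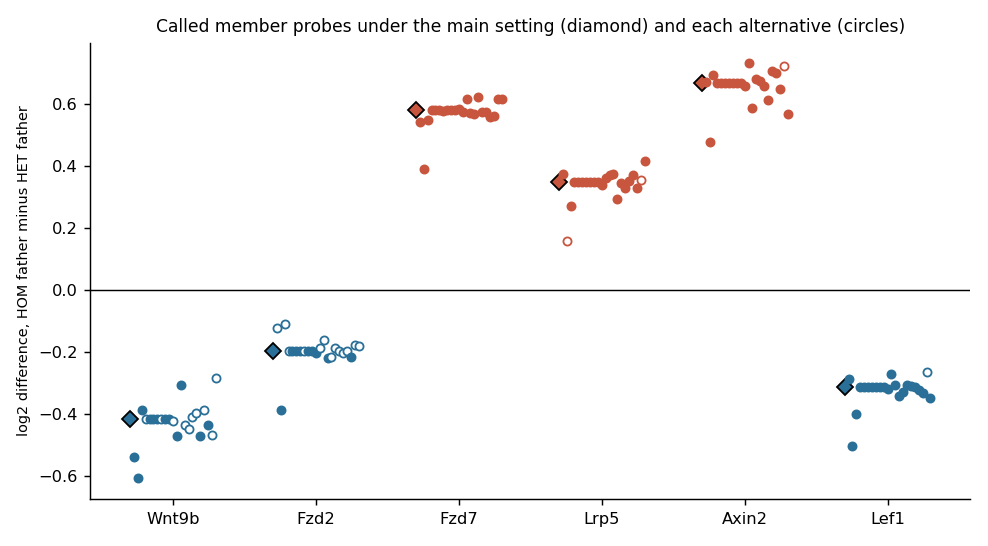
Log2 difference between HOM and HET father embryos (y axis) of the 6 called member probes (x axis) under the reported setting (diamond) and each alternative (circles); filled symbols have an adjusted p below 0.05, open symbols do not. All symbols of a gene lie on the same side of 0, and most open symbols belong to *Wnt9b* and *Fzd2*.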

How the data were processed

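RNA of 8 E8.5 embryos, 4 per father group as the labels name them, was measured on 1-colour Agilent 8x60K mouse arrays. The authors deposited scanner output of Agilent Feature Extraction 11.0.1.1, whose processed signal is a background-subtracted intensity in linear units, with flag columns in other units, and a value table of the same signals that differed from them by at most 0.497%. That table was used as an alternative after taking log2, since the deposited values are not on a log2 scale. No sample column was left unused.

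Here, log2 processed signals were taken relative to the 75th percentile of unflagged non-control spots of each array, and spots of a probe were averaged. Following the study's methods, a probe was tested if on 4 or more arrays it was both well above background and not under the 20th percentile, which kept 29718 of 55681 probes (53.4%). Groups were compared with limma 3.58.1 in R 4.3.3, two-sided, with Benjamini-Hochberg adjustment over all tested probes, and the script was tested on simulated data. Probes were named through the RefSeq table (GRCm38.p6) for 27235 probes, and different probes of a gene were kept apart. A marker list was summed on the linear scale over its leading probes and written as log2.

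The members and gene lists were chosen with earlier results of these data known. Values in every embryo are given for members called by father, for *Wnt3a*, *Axin2* and *Lef1*, and for the uncalled leading probe with the largest difference in each role; of the other pathway genes, the called ones with the 6 largest differences were named. Alternatives covered scaling, background correction, the filter, the variance model, blocks, sex as a covariate and each embryo left out. Normexp used the median signals with an offset of 50, since the files hold no mean signal column.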

Additional observations from a re-analysis of the deposited data

Results flagged for a closer look

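In 7 of the 91 father groups of member probes with 4 measured embryos, 1 embryo stood apart from the other three by Dixon's test, where chance alone gives about 4.55 such groups. *Wnt7b* was -3.10 in HET 2 against -3.93 to -3.79 in the others, *Wnt11* was -1.13 in HET 3 against -1.58 to -1.51, and *Wnt16* was -1.44 in HOM 4 against -4.11 to -3.80. The called *Fzd7* probe was -0.40 in HOM 2 against -0.28 to -0.25, *Fzd9* was 0.32 in HET 2 against 0.51 to 0.55, *Lrp5* was 1.66 in HOM 4 against 1.42 to 1.45, and *Frzb* was 0.95 in HET 2 against 0.20 to 0.27. HET 2 was the embryo concerned in 3 of the 7. Without HOM 2 the *Fzd7* difference and without HOM 4 the *Lrp5* difference kept their calls.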

How the results depend on the processing

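Of 22 alternatives, 3 were chosen after seeing the data: the 75th percentile over distinct probes, position on the slide as a fixed block, and the 2 HOM father embryos with the highest *Prl8a2* left out. Member probes called higher stayed at 3 except under the fixed position block (1) and median scaling (2), and lower calls were 16 under median scaling, 5 under normexp, 1 without the filter, 1 with *Prl8a2*-high embryos left out, 0 under the fixed block and 1 to 2 with each embryo left out. Other pathway probes called higher numbered 3 under median scaling, 3 without the filter, 1 under the fixed block and 4 to 7 with each embryo left out. Those called lower numbered 26 under median scaling, 11 under normexp, 0 without the filter, 1 with sex as a covariate, 2 with the identifier block, 0 under the fixed block, 3 without the *Prl8a2*-high embryos and 0 to 6 with each embryo left out. With the replicate number as a block, member probes numbered 3 higher and 1 lower, and other pathway probes 3 higher and 0 lower. Same-numbered embryos correlated at 0.19, -0.09, -0.13 and 0.15, so the numbers do not pair them. Lower calls over all tested probes were 2583 against 3377 with the percentile over distinct probes, 10351 under median scaling, 439 without the filter, 103 under the fixed position block, 671 with the replicate block, 896 without the *Prl8a2*-high embryos and 1168 without HET 3. Signs that turned were all of uncalled probes of genes called on another probe, for *Fzd7* the leading one: *Axin2* at -0.097, -0.15 and -0.061 under quantile, median and normexp processing and between -0.068 (without HET 3) and 0.11 with each embryo left out; *Fzd2* at -0.081 under median scaling, -0.056 without the *Prl8a2*-high embryos and between -0.33 (without HET 4) and 0.46 with each embryo left out, including -0.058 without HOM 2; and *Fzd7* between -0.10 and 0.00336 (without HOM 2). *Axin2* was also at -0.034 without HOM 4. The cause was not tested.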

Other observations

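Of marker genes not described above, *Uncx*, a homeobox gene of the posterior part of the somite, was higher in HOM father embryos by 0.63 (adjusted p = 0.00377), whereas *Meox1*, *Tcf15* and both probes of *Pax3* in the same list were not called. *Sox1*, a neural progenitor gene, was higher by 0.42 (adjusted p = 0.0209) on 1 probe and differed by -0.16 on the other. *Apoa1*, an apolipoprotein of the yolk sac, differed by -0.41 (adjusted p = 0.0139) and *Myl7*, an atrial myosin light chain, by -0.25 (adjusted p = 0.0408). *Gcm1*, a transcription factor of labyrinth trophoblast, differed by -1.07 (adjusted p = 0.0217) on 1 probe and by -0.99 and -0.35, not called, on a further pair. These values carry the same limit of 1 slide per father group.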
